A study of Eutrema salsugineum with 41 samples.

Results

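The windows described here are stretches of 1000 bp of the Eutrema salsugineum genome in which H3K9me2 reads differed at least 2-fold between the T5 and the T3 generation of plants carrying A. thaliana CMT3 (AtCMT3), in the same direction in both transformed lineages. All 4 libraries were thinned to 7744055 reads, reads were counted by their midpoints, and a window was tested if it held at least 10 reads in at least 1 library. Of 243166 windows outside the chloroplast, 221214 were tested. In T5, 35950 windows were gained, meaning at least 2-fold more reads in T5 than in T3 in both lineages, and 118 were lost, meaning at least 2-fold fewer. The members therefore number 36068, which is 16.3% of the tested windows, and gained and lost are used below as names for the outcome of this rule.

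H3K9me2, the dimethylation of lysine 9 on histone H3, marks transposons and other silent heterochromatin in plants. In A. thaliana the chromomethylase CMT3 binds this mark through its chromodomain and methylates cytosines in the CHG context nearby, and the methylated DNA is in turn bound by the histone methyltransferases that write H3K9me2. E. salsugineum has lost CMT3, and the study asked what happens to heterochromatin and genes when the enzyme is put back.

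The series holds 41 samples, and 4 of them enter the rule, the H3K9me2 ChIP-seq libraries of AtCMT3-L1T3 and AtCMT3-L1T5 in one lineage and of AtCMT3-L2T3 and AtCMT3-L2T5 in the other. L1 and L2 are separately transformed lineages of the Shandong ecotype, made by floral dip with genomic AtCMT3 under its native promoter in pEarleyGate 302, selected with BASTA and kept by descent through a single seed. T3 and T5 are generations after transformation, so all 4 plants descend from transformants, while wild type was not transformed. Each library came from the leaves of 1 plant, so n is 2 plants per generation, and the number and place of insertions in these plants was not analysed here. Wild-type H3K9me2 and wild-type input (chromatin without immunoprecipitation) were not used by the rule and serve as further measures, again with 1 library each. The leaf label could not be checked against marker genes, because the expression table pairs no names with its identifiers.

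Outside the chloroplast the libraries held 15328064 reads in AtCMT3-L1T3 and 10616761 in its T5 counterpart, 7744055 in AtCMT3-L2T3 and 18600605 in its T5 counterpart, against 4446561 in wild type and 10738290 in input. The sequencing run, as given in the read names, separated the generations. Both T5 libraries and the input were read in 1 run, AtCMT3-L2T3 in another, and AtCMT3-L1T3 in 2 others, of which 1 also held wild type. No T3 library shared a run with a T5 library, so generation and run cannot be told apart in any comparison below. Wild type over input, used below to group windows, also sets a run of AtCMT3-L1T3 against the run of the T5 libraries. Chloroplast reads moved with generation as well, at 0.267% and 0.144% of the T3 libraries and 1.23% and 0.653% of the T5 libraries, with 1.06% in wild type and 1.31% in input. The part of run, library preparation and chloroplast share in the results was not tested.

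Levels are given as reads per 1000000 (rpm) of the library's reads outside the chloroplast, per window, from all reads. In the 35950 gained windows the mean level was 0.695 rpm in AtCMT3-L1T3 and 1.91 rpm in AtCMT3-L1T5, and 0.416 rpm in AtCMT3-L2T3 and 1.43 rpm in AtCMT3-L2T5. The same windows held 1.27 rpm in wild type and 5.09 rpm in input. Both T5 libraries lay above wild type and both T3 libraries below it, but the windows were chosen for low T3 and high T5 reads, which largely fixes that order. The rule did not choose the windows at or below input in wild type as a whole. Over all of these, L1 held 1.78 rpm in T3 and 2.30 rpm in T5, and L2 held 1.37 and 2.13 rpm. Wild type held 1.72 rpm there, though its own low reads chose these windows. In the gained windows every H3K9me2 library lay below input. Relative to wild type the T3 levels were 0.547 in L1 and 0.327 in L2, and the T5 levels 1.504 and 1.12. Relative to input the T5 levels were 0.375 and 0.280.

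In the 118 lost windows the mean level was 2.09 rpm in AtCMT3-L1T3 and 1.04 rpm in AtCMT3-L1T5, and 2.08 rpm in AtCMT3-L2T3 and 1.24 rpm in AtCMT3-L2T5. Wild type held 1.65 rpm, between the generations, and input held 1.27 rpm. The windows were chosen for high T3 and low T5 reads, which largely fixes the place of wild type. These windows carried little input, with a median of 0.745 rpm against 4.00 rpm over all tested windows and 4.75 rpm in the gained windows.

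**Figure D1:**
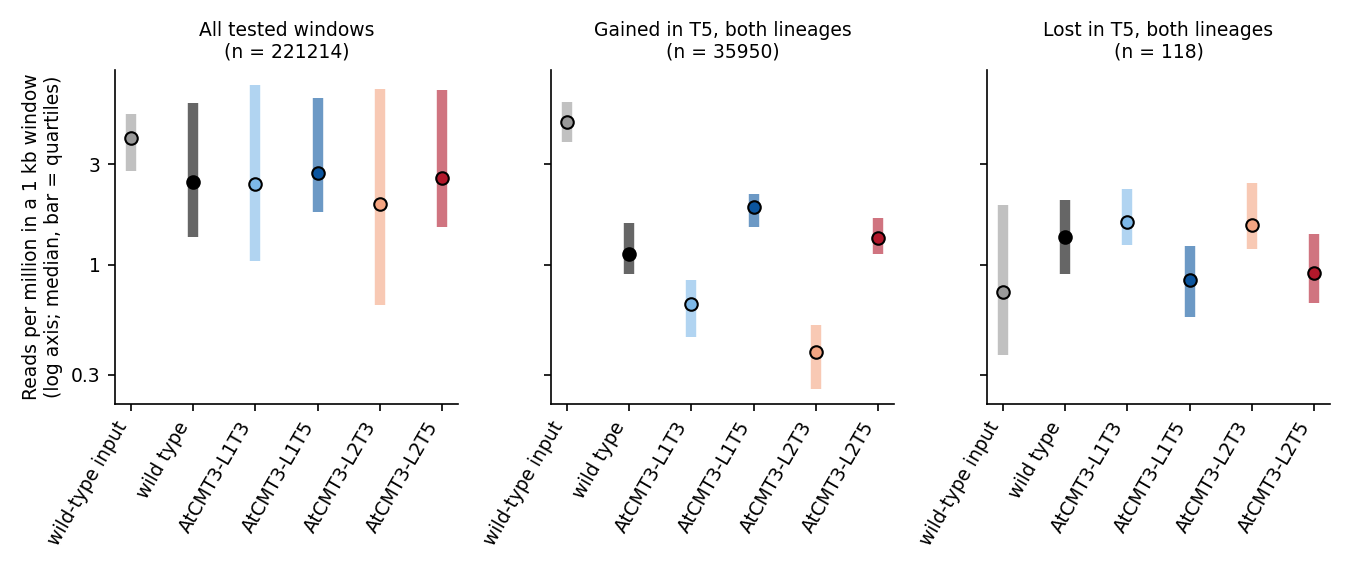
Levels in rpm per 1000 bp window (log axis) in each library, for all tested, gained and lost windows. Points are medians over windows and bars run from the lower to the upper quartile, with 1 library per plant. In the gained windows the medians were 0.652 and 0.387 rpm in the T3 plants, 1.88 and 1.34 rpm in the T5 plants, 1.12 rpm in wild type and 4.75 rpm in input.

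The gained windows were thinly covered. Their median counts in the thinned libraries were 5 reads (T3) and 15 reads (T5) in L1, and 3 reads (T3) and 11 reads (T5) in L2. In 2782 gained windows at least 1 T3 library had no read, and in 113 both had none. The 95% counting interval of the ratio lay above 1 in both lineages in 9155 gained windows (25.5%), from the same reads that chose them. For the lost windows the medians were 14, 5, 12 and 5 reads in the same order. All intervals cover counting error only, not differences between plants.

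The direction was far from even. Of the tested windows, 16.3% were gained and 0.0533% lost, so 99.7% of the changed windows were gained. Within L1 alone 51140 windows (23.1%) were at least 2-fold higher in T5 and 4482 (2.03%) at least 2-fold lower, and within L2 alone 70812 (32%) and 3233 (1.46%). The gained windows made up 70.3% of those higher in L1, beside 32% of all tested windows higher in L2. They made up 50.8% of those higher in L2, beside 23.1% of all tested windows higher in L1. The lost windows made up 2.63% of those lower in L1, beside 1.46% of all tested windows lower in L2. They made up 3.65% of those lower in L2, beside 2.03% of all tested windows lower in L1. Opposite changes were found in 346 windows (0.156%), higher in L1 and lower in L2, and in 766 (0.346%), lower in L1 and higher in L2. The median log2 difference of T5 minus T3 over all tested windows was 0.16 in L1 and 0.36 in L2. With these shifts left in, the medians of the gained windows were 1.51 and 1.69 and those of the lost windows -1.22 and -1.21. When the median of all tested windows was set to 0, gained windows were 98.1% of the changed windows. When the windows at or below input in wild type set the scale, which was chosen with the data seen, 14663 windows were gained and 2328 lost, and gained windows were 86.3%.

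The choice of reads in thinning mattered more for lost than for gained windows. With another draw of reads 35801 windows were gained and 109 lost, of which 24175 gained windows (67.2% of the original list) and 19 lost windows (16.1%) were shared with the first draw. With all reads scaled by library size 25370 of the gained windows (70.6%) and 14 of the lost windows (11.9%) were found again, and 20806 gained and 9 lost windows were found in all 3 lists. Thinning left reads aside that the rule did not use, except in AtCMT3-L2T3, which was the smallest library. In these reads the T5 to T3 ratio in L1 over the gained windows was 2.27 (95% interval 2.25 to 2.28), against 3.20 in the reads that chose them. Over the lost windows it was 0.742 (0.668 to 0.823), against 0.397 in the reads used. In AtCMT3-L2T5 the level in the reads left aside was 0.916 times that in the reads used for the gained windows and 1.74 times that for the lost windows.

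One fit across all tested windows set the T5 to T3 difference against how far that difference varied between the lineages. In limma on log2(thinned reads + 0.5), with the lineage as a block, 0 windows passed a Benjamini-Hochberg adjusted p of 0.05 in either direction, and the lowest adjusted p was 0.193. At an unadjusted p below 0.05, 42492 windows were higher in T5 and 2128 lower. The median fitted log2 difference was 1.68 (median standard error 0.62) over the gained windows and -1.22 (0.55) over the lost windows, beside 0.24 (0.38) over all tested windows. The fit used the thinned reads that chose the gained and lost windows, so their values are a description. The count depended on the setting. With all reads in place of thinned reads 18163 windows passed, 18047 of them higher in T5, and with windows of 2000 bp 22316 passed, 22166 of them higher. On the scale of windows at or below input in wild type 24504 passed, of which 21809 were lower. With 1 residual degree of freedom the estimate of the spread rests on what all windows share, and it differed between these settings.

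Wild type shows where the gained windows lay. Of the 35950, 35628 (99.1%) were at or below input in wild type, beside 59.9% of all tested windows. A wild-type H3K9me2 window is a window with at least 10 wild-type reads whose share of its library was 4-fold or more that of input. There were 21180 of these among the tested windows (9.57%), and they held 2 gained and 8 lost windows. In T5 itself, 178 gained windows (0.495%) were above input in both libraries, and 7 were at least 4-fold above it in both, with between 0 and 3 input reads each. The same T5 counts were not made over all tested windows, so how far gained windows depart from these was not measured. In 14584 gained windows (40.6%), and in 27543 tested windows (12.5%), the wild-type level was above both T3 libraries and below both T5 libraries, and nothing is read from this, since the rule set the T3 and T5 levels of the gained windows.

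Input shared the run of both T5 libraries and wild type a run of AtCMT3-L1T3, so their ratio is not independent of run. The tested windows needed 10 reads in at least 1 of the 4 libraries, so windows of few T3 reads could enter through their T5 reads. This can raise the T5 to T3 ratio and the share gained where wild type is low. Windows were grouped by the ratio of wild-type H3K9me2 to input, which the 2-fold rule did not use. The pattern was graded over the 213825 tested windows with at least 10 input reads. The 7389 windows with fewer, left out here, held 28 gained and 63 lost windows, among them both gained wild-type H3K9me2 windows. Where wild type was below 0.1 times input, 46.5% of 8672 windows were gained, and the T5 to T3 ratio of levels was 1.98 in L1 and 2.40 in L2. The share fell through 39.1%, 26.7%, 13.7% and 5.33% in the classes up to 1 times input, to 1.25% between 1 and 1.5 times and 0.0687% between 2 and 3 times input. None of the 17808 windows with at least 10 input reads at 4 times input or more was gained. The ratio fell with wild-type enrichment in both lineages up to 4 times input, to 0.869 in L1 and 0.882 in L2, and the lineages parted above it. At 8 times input or more it was 1.06 (95% interval 1.05 to 1.06) in L1 and 0.607 (0.606 to 0.609) in L2.

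**Figure D2:**
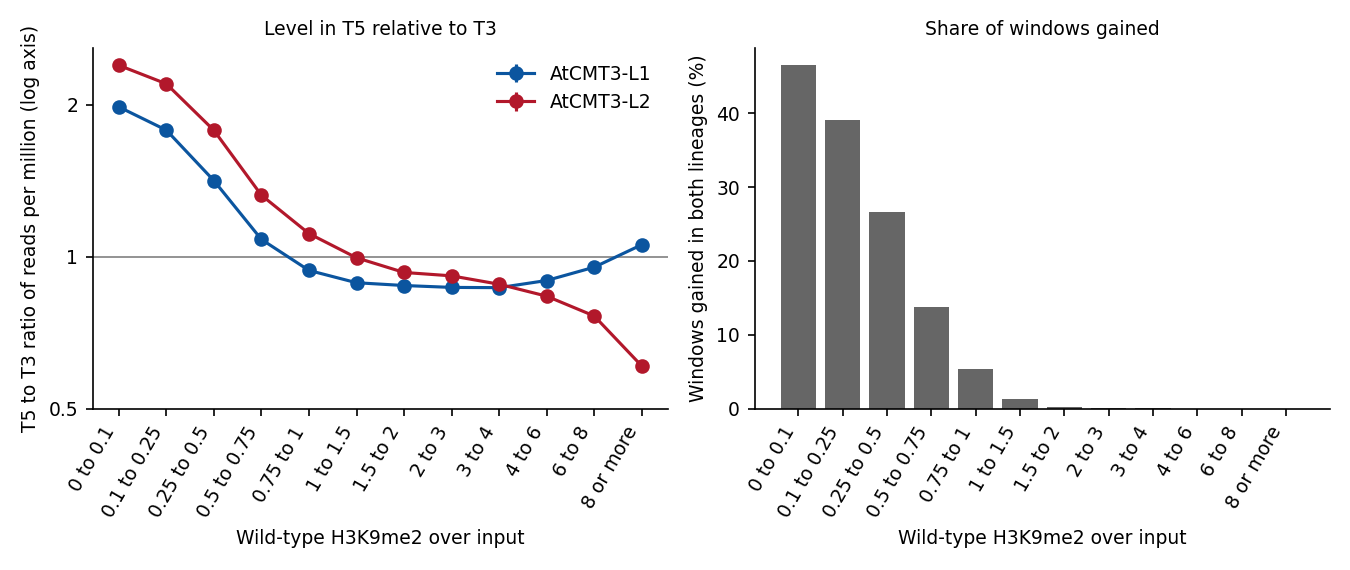
Left, ratio of T5 to T3 levels in rpm (log axis) in windows grouped by wild-type H3K9me2 over input, for lineages L1 and L2, with 95% counting intervals that are mostly smaller than the points. Right, percent of windows of each class that were gained in both lineages. The share fell from 46.5% to 0%, and the ratio ran from 1.98 to 1.06 in L1 and from 2.40 to 0.607 in L2.

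Over the wild-type H3K9me2 windows as a whole, the established heterochromatin, the mean level was 10.5 rpm in AtCMT3-L1T3 and 10.02 rpm in AtCMT3-L1T5, a ratio of 0.956 (0.954 to 0.957). It was 13.3 rpm in AtCMT3-L2T3 and 9.87 rpm in AtCMT3-L2T5, a ratio of 0.741 (0.739 to 0.742), with 13.6 rpm in wild type. High wild-type reads chose these windows, which can raise the wild-type level and its share of reads there above those of the AtCMT3 libraries. Both T5 levels were lower than the T3 level of their lineage and close to each other, while the T3 levels were apart. The mean log2 ratio was -0.25 ± 0.26 (SD, n = 2 lineages), so the difference was no larger than the spread between lineages. Over the windows at or below input in wild type the ratio was 1.29 in L1 and 1.55 in L2, a mean log2 ratio of 0.50 ± 0.19 (SD, n = 2). With 2 plants per generation a two-sided exact permutation test cannot give a p below 0.333, or 0.5 when paired, and none was computed. The share of reads in wild-type H3K9me2 windows was 22.2% and 28.3% in the T3 libraries and 21.2% and 20.9% in the T5 libraries, with 28.9% in wild type and 4.18% in input. Levels are shares of a library, so a higher share in some windows comes with a lower share in others.

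The gained windows lay away from wild-type heterochromatin. Their median distance to the nearest wild-type H3K9me2 window was 30 kb (quartiles 11 and 82 kb), beside 9 kb (3 and 28 kb) for tested windows and 5 kb (1 and 11 kb) for lost windows. The share gained was 0.875% next to such a window, 8.33% at 2 to 5 kb, 23.7% at 21 to 50 kb and 41.7% beyond 100 kb. The T5 to T3 ratio over all tested windows beyond 100 kb was 1.88 in L1 and 2.23 in L2. Lost windows numbered 8 inside (0.0378% of tested windows there), 18 next to (0.0921%) and 34 at 2 to 5 kb from (0.0792%) a wild-type H3K9me2 window, beside 0.0533% over all tested windows, and 1 lay beyond 100 kb. Another 17 lay on sequences with no wild-type H3K9me2 window and have no distance. Those sequences held 2247 tested windows and 26 gained windows, so the share lost was higher there than at any distance given.

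**Figure D3:**
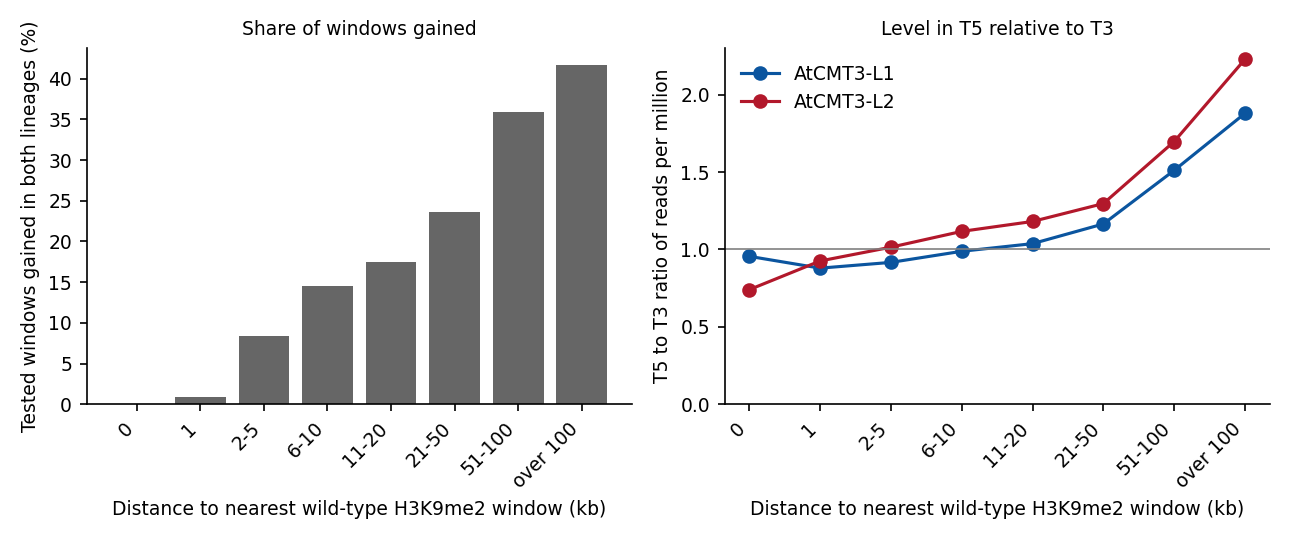
Left, percent of tested windows gained in both lineages against the distance in kb to the nearest wild-type H3K9me2 window. Right, ratio of T5 to T3 levels in rpm over all tested windows at that distance, for L1 and L2. The share went from 0.00944% inside wild-type H3K9me2 windows to 41.7% beyond 100 kb.

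On the scaffolds the gained windows followed the inverse of the wild-type mark. The 24 scaffolds of at least 1 Mb held 35884 gained windows (16.6% of 216327 tested) and 100 lost windows, and the 606 shorter sequences held 66 gained (1.35% of 4887) and 18 lost. Lost windows were thus a higher share of tested windows on the shorter sequences, the reverse of gained windows. Scaffold 22 had the highest share gained, 43.1%, and 0.593% of its tested windows were wild-type H3K9me2 windows. Scaffolds 19, 13 and 5 came next with 39.0%, 37.4% and 30.9%, at 2.73%, 2.16% and 4.49% wild-type H3K9me2. At the other end scaffold 21 had 0.438% gained and 19.7% wild-type H3K9me2, and scaffolds 18 and 24 had 1.62% and 1.73%. The largest numbers lay on scaffold 2 (4705), scaffold 5 (4488) and scaffold 1 (4276). Across the 24 scaffolds Pearson's r between both shares was -0.95 and Spearman's rho -0.93, a description only, since all scaffolds are measured in the same 6 libraries, and base composition was not measured. Over whole scaffolds the T5 to T3 ratio was highest on scaffold 22, at 1.78 in L1 and 2.13 in L2. Scaffold 18 had 1.05 in L1 and 0.783 in L2, the lowest of L2 among these scaffolds.

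**Figure D4:**
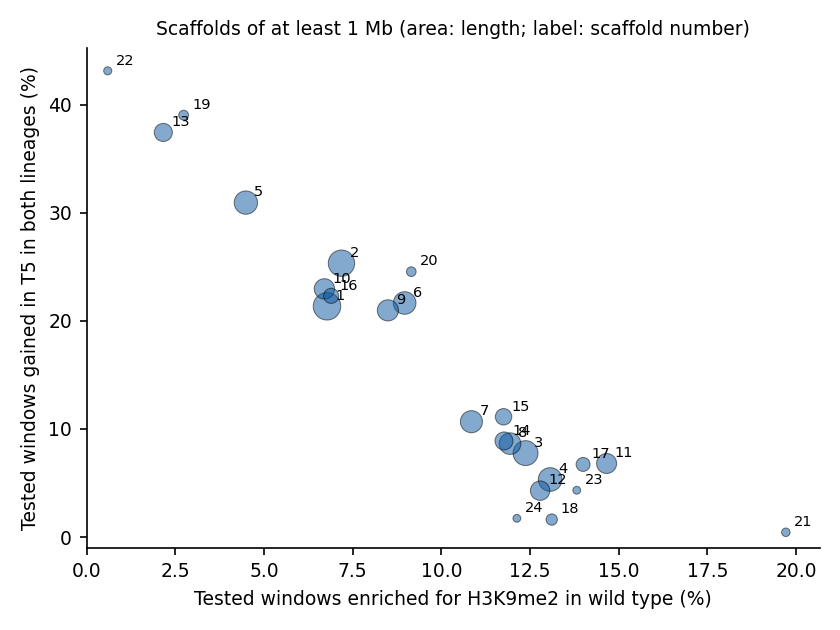
Percent of tested windows gained in T5 in both lineages against percent that are wild-type H3K9me2 windows, for the 24 scaffolds of at least 1 Mb. Each circle is a scaffold with its number, and the area is proportional to its length. Scaffold 22 lies at 43.1% gained and scaffold 21 at 0.438%.

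The same held at 100 kb. Of 2353 blocks with at least 50 tested windows, 345 held no gained window and 50 had at least 50% gained, with a median of 10%. In blocks with under 1% wild-type H3K9me2 windows the median share gained was 40.4% (375 blocks), and in blocks with 20 to 40% it was 1.205% (301 blocks). The block with the highest share was scaffold 2, positions 3800001 to 3900000, with 49 of 78 tested windows gained (62.8%) and 0 wild-type H3K9me2 windows. Its T5 to T3 ratio was 2.37 in L1 and 2.94 in L2. The next were on scaffold 2 (700001 to 800000, 60.2%), scaffold 6 (500001 to 600000, 59.6%), scaffold 1 (2500001 to 2600000, 58.8%) and scaffold 10 (11400001 to 11500000, 57.3%), also with 0 wild-type H3K9me2 windows. Positions are those of the v1.0 assembly as deposited, and which genes lie there was not analysed here.

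The gained windows formed 22047 runs, of which 13987 were 1 window and 602 were at least 5 kb. Runs of 2 or more held 61.1% of gained windows. Gained windows were 16.3% of tested windows, and a median of 40.4% in blocks with under 1% wild-type H3K9me2 windows. How many would touch at these shares alone was not computed. The longest run was 12 kb, on scaffold 1 from 2247001 to 2259000. It held 49 thinned reads in AtCMT3-L1T3 and 166 in AtCMT3-L1T5, a ratio of 3.39. In L2 it held 31 and 127 reads, a ratio of 4.10. The ratios of the runs come from the reads that chose them and are a description. With all reads its level per kb was 0.506 and 1.71 rpm in L1 and 0.334 and 1.27 rpm in L2, 1.44 rpm in wild type and 5.94 rpm in input. The next run, on scaffold 7 from 3681001 to 3692000, held 49 and 170 thinned reads in T3 and T5 of L1, and 28 and 112 in L2. Wild type held 1.25 rpm per kb there and input 7.48 rpm. The 10 kb runs on scaffold 2 (4382001 to 4392000), scaffold 7 (383001 to 393000) and scaffold 1 (10077001 to 10087000) had ratios of 3.63, 3.37 and 3.13 in L1 and 4.60, 4.25 and 3.16 in L2. All 118 lost windows stood alone, at 0.0533% of tested windows.

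At the centre of the 602 runs of at least 5 kb the mean level was 0.572 and 0.339 rpm in the T3 libraries, 1.82 and 1.31 rpm in the T5 libraries, 1.22 rpm in wild type and 5.02 rpm in input. The choice of the runs for low T3 and high T5 reads largely fixes the order of T3, wild type and T5. All H3K9me2 libraries were lower at the centre than at 10 kb on either side. Lost windows were local dips in every library, input included, and AtCMT3-L1T3 and AtCMT3-L2T3 dipped to 2.09 and 2.08 rpm. At the centre of the 754 wild-type H3K9me2 runs of at least 5 kb the levels were 12.7 and 17.7 rpm in T3, 12.5 and 11.9 rpm in T5 and 18.2 rpm in wild type. High wild-type reads chose these runs, which can raise the wild-type level there.

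**Figure D5:**
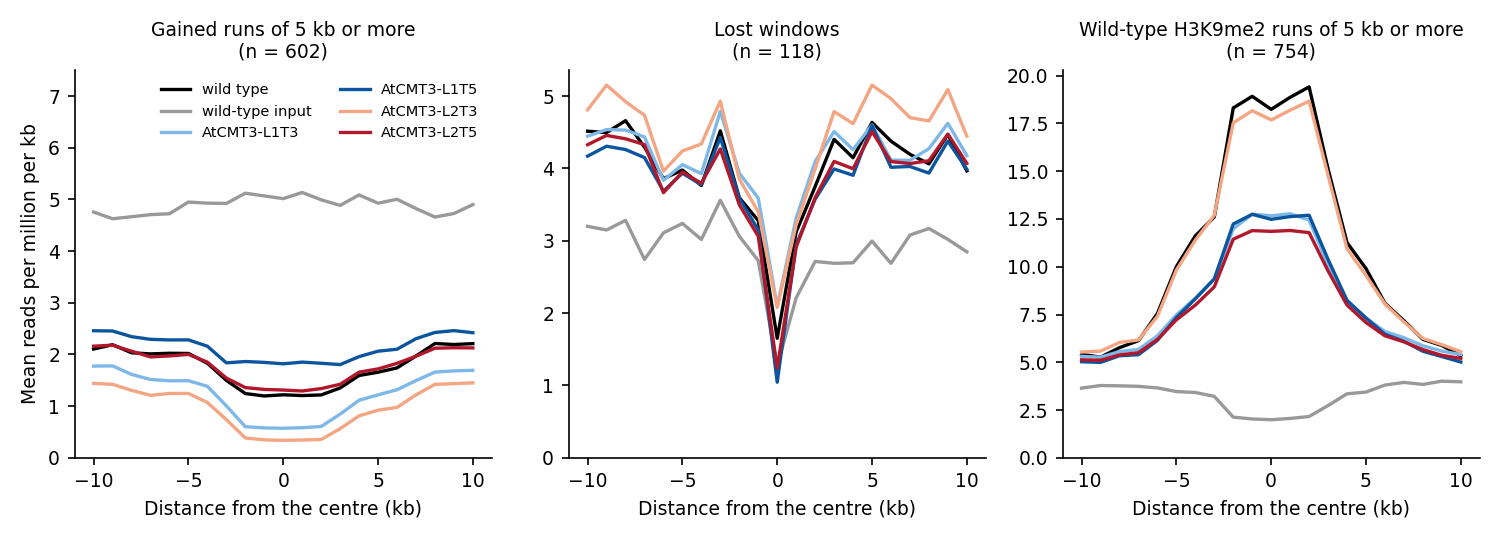
Mean rpm per kb in each library against the distance in kb from the centre of gained runs of at least 5 kb (602), lost windows (118) and wild-type H3K9me2 runs of at least 5 kb (754). The vertical scales of the panels differ. At gained runs the T5 lines (1.82 and 1.31 rpm at the centre) lie above wild type (1.22 rpm) and below input (5.02 rpm), and the T3 lines lie lowest. The rule chose these runs for low T3 and high T5 reads, which largely fixes the order of T3, wild type and T5.

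The strongest gained windows had no thinned T3 read. On scaffold 10, positions 11432001 to 11433000, both T3 libraries had 0 thinned reads and both T5 libraries 18. Against a floor of 3 reads per library this is at least 6-fold higher in each lineage among the thinned reads. With all reads the window held 0.196 and 2.83 rpm in L1 and 0 and 1.51 rpm in L2, beside 0.225 rpm in wild type and 4.66 rpm in input. The window on scaffold 6 from 1834001 to 1835000 had 0 and 18 thinned reads in L1 and 0 and 13 in L2, yet with all reads AtCMT3-L1T3 held 0.457 rpm there and AtCMT3-L1T5 1.79 rpm, and wild type also held 1.80 rpm. Those on scaffold 5 (14653001 to 14654000), scaffold 3 (3600001 to 3601000) and scaffold 9 (4327001 to 4328000) had 0 thinned reads in both T3 libraries and between 12 and 21 in T5, with 0.8996, 0.675 and 0 rpm in wild type.

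The gained windows with most reads were on scaffold 2 (13469001 to 13470000) and scaffold 4 (2893001 to 2894000). The first had 73 and 220 thinned reads in L1 and 60 and 120 in L2, and wild type held 12.1 rpm and input 20.5 rpm. The window on scaffold 4 had 49 and 197 reads in L1 and 31 and 100 in L2, with 9.22 rpm in wild type and 18.7 rpm in input. Input was several times its median in both. The L2 ratio of the first was exactly 2.00, just inside the threshold, as was that of the window on scaffold 2 from 8499001 to 8500000 (41, 92, 33 and 66 reads). Just outside lay scaffold 5, 12347001 to 12348000 (27, 53, 15 and 37 reads, ratio 1.96 in L1), and scaffold 18, 2844001 to 2845000 (24, 55, 26 and 51 reads, ratio 1.96 in L2). The gained windows that were wild-type H3K9me2 windows lay on scaffold 2 (14398001 to 14399000) and scaffold 14 (5490001 to 5491000), with 2 and 3 input reads and 15 thinned reads in AtCMT3-L1T5 each.

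Among the lost windows the most covered were on scaffold 17 (2887001 to 2888000), with 95 and 46 thinned reads in L1 and 87 and 43 in L2, and on scaffold 3 (4180001 to 4181000), with 73 and 35 in L1 and 94 and 45 in L2. With all reads the T3 plants held 11.5 and 11.2 rpm at the former and 9.59 and 12.1 rpm at the latter, above the 9.45 and 8.55 rpm of wild type, and input held 4.00 and 3.17 rpm. The window on scaffold 15 from 372001 to 373000 was a wild-type H3K9me2 window, with 80 and 31 thinned reads in L1 and 64 and 32 in L2, just inside the threshold in L2. With all reads it held 10.7 and 3.96 rpm in L1 and 8.26 and 5.05 rpm in L2, and 8.55 rpm in wild type. The other window just inside was on scaffold 8 (7339001 to 7340000), with 49, 20, 62 and 31 reads. Just outside lay scaffold 1 (18075001 to 18076000), with 131, 65, 120 and 61 reads, and scaffold 14 (5281001 to 5282000), with 51, 26, 49 and 22.

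The lost windows with the largest ratios held few reads. On scaffold 12, 6162001 to 6163000, AtCMT3-L1T3 had 7 thinned reads and AtCMT3-L1T5 0, at least 2.33-fold lower against the floor, and L2 had 12 and 3. On scaffold 6, 12964001 to 12965000, the reads were 26 and 7 in L1 and 11 and 2 in L2, with 1 input read. Both are among the 9 lost windows found under both draws and with all reads. The 3 others by the same ranking, on scaffold 2 (15613001 to 15614000), scaffold 18 (1413001 to 1414000) and scaffold 31 (352001 to 353000), held 11 to 19 thinned reads in AtCMT3-L1T3 and 3 to 5 in AtCMT3-L1T5. With all reads the difference was smaller in some of them, at 1.04 rpm in T3 and 0.754 rpm in T5 in L1 on scaffold 18, and at 1.68 and 1.398 rpm in L2 on scaffold 31. Of all lost windows 92 (78.0%) had input below 0.5 times its median, beside 12.6% of tested and 0.946% of gained windows, and 5 had no input read. In 29 lost windows (24.6%) both T3 libraries were at least 4-fold over input, beside 9.33% of tested windows, and in 91 (77.1%) both were above input, beside 40.9%. The rule chose these windows for high T3 reads, so these shares are a description. In all, 23 lost windows had a counting interval of the ratio below 1 in both lineages.

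Within L1 the run of the T3 library could be exchanged. AtCMT3-L1T3 had been read in 2 runs, and after thinning each part and AtCMT3-L1T5 to 7438996 reads the parts differed at least 2-fold in 5551 (3.39%) and 6392 (3.91%) of 163572 windows, higher in the run shared with wild type and in the other run. Against AtCMT3-L1T5, 23.1% of windows were gained relative to the run shared with wild type and 22.6% relative to the other, and 2.11% and 2.25% were lost. In the gained windows the level of AtCMT3-L1T3 was 0.691 rpm in the run shared with wild type and 0.700 rpm in the other, and wild type in that shared run held 1.27 rpm, though the windows had been chosen for low reads in AtCMT3-L1T3. These are reads of 1 library, so they bear on the run of AtCMT3-L1T3 and not on that of the T5 libraries.

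Transgene expression in RNA-seq of plants with the same names did not move in the same direction in both lineages. AtCMT3 was at 77.2 TPM (transcripts per 1000000) in AtCMT3-L1T3 and 97.8 TPM in AtCMT3-L1T5, and at 159 TPM in AtCMT3-L2T3 and 62.7 TPM in AtCMT3-L2T5, with 0.225 TPM in wild type. The log2 ratio of T5 to T3 was 0.34 in L1 and -1.34 in L2, and its relation to the windows was not tested. IBM1 is a demethylase that removes H3K9 methylation from gene bodies in A. thaliana. Of the 3 IBM1-like genes named in the study, Thhalv10023846m was at 9.59 and 11.1 TPM in L1 and 12.2 and 10.5 TPM in L2 (T3, then T5), and 9.89 TPM in wild type. Thhalv10029199m was at 4.54 and 4.44 TPM in L1 and 3.37 and 3.34 TPM in L2, and Thhalv10020080m stayed below 1 TPM in all 4 plants. With 1 RNA library per plant these differences have no replicate check.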

How the data were processed

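H3K9me2 ChIP-seq of 4 AtCMT3 plants and of wild type, and wild-type input, were used, with RNA-seq of the same 5 plant names. For ChIP-seq the authors used Bowtie on trimmed reads against the v1.0 genome of E. salsugineum. They kept reads that align to a single place, took out duplicates (SAMtools) and deposited the start and end of every read, and a score that has the same value for every read and was not used. Read positions were counted by midpoint, so no values in normalized units enter. The expression table that the authors deposited as FPKM holds FPKM in some columns and TPM in others, as the sums of the deposited columns show, and each column was scaled to a sum of 1000000. No column of another sample was used (0 columns).

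Reads were thinned without replacement (seed 1) to the smallest of the 4 libraries. The depth ranged from 4494275 to 18722786 reads per library before the chloroplast was left out, and intervals are exact 95% intervals of a ratio of counts. The T5 and T3 samples were paired by lineage, from the lineage number in the labels. The deviations from the generation means correlated at 0.08 between same-numbered libraries, over 221214 windows. limma used a trend, log2(thinned reads + 0.5), the lineage as a block and Benjamini-Hochberg adjustment over all tested windows. Blocks of 100 kb needed 50 tested windows. Windows named are the 5 longest runs, the 5 strongest, the 2 just inside and the 2 just outside the threshold in each direction; those with most reads and the gained windows in wild-type H3K9me2 were named after their values were seen. The members and lists were chosen with earlier results of these data known. The calling rule and limma were tested on simulated data with known changes. The changed windows there had more reads and larger changes than most gained windows, and counts varied by counting error only. That check therefore does not cover windows of few reads or the spread between plants. limma 3.58.1 ran in R 4.3.3, and counts and figures were made in Python 3.11.15 with pandas 2.3.3, numpy 2.4.6, matplotlib 3.10.9 and scipy 1.17.1. Alternatives were other window sizes, read minimums, folds, scales, draws of reads and pseudocounts, and single lineages. Bisulfite and H3K9me1 libraries were not analysed here, and labels do not say whether plants were grown together. With the lineage as a block, p-values rest on how the T5 to T3 difference varied between the lineages. They cover these 4 plants only.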

Additional observations from a re-analysis of the deposited data

Results flagged for a closer look

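Several results pointed in opposite directions in the lineages, and the difference between lineages was not tested, with 1 plant per lineage and generation. In the windows where wild-type H3K9me2 was 8 times input or more, the T5 to T3 ratio of levels was 1.06 in L1 and 0.607 in L2. Where wild type was between 0.75 and 1 times input it was 0.940 in L1 and 1.11 in L2. In single windows, 346 were at least 2-fold higher in T5 in L1 and 2-fold lower in L2, and 766 were lower in L1 and higher in L2.

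The log2 ratio of AtCMT3 expression, T5 to T3, was 0.34 in L1 and -1.34 in L2. For the IBM1-like genes Thhalv10023846m and Thhalv10020080m it was 0.21 and 0.39 in L1 and -0.21 and -0.31 in L2, the latter gene at under 1 TPM.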

How the results depend on the processing

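Gained windows outnumbered lost windows under every setting run for both counts. Gained and lost windows numbered 25122 and 688 with windows of 500 bp, 18677 and 23 with 2000 bp, 6316 and 40 with a minimum of 20 reads, 39082 and 439 with none, 58306 and 1200 at 1.5-fold and 13927 and 14 at 3-fold. They numbered 32191 and 27 with all reads, 22457 and 424 with the median log2 ratio set to 0, 28682 and 154 with reads outside wild-type H3K9me2 windows as the scale, and 33270 and 26 where input was between 0.5 and 2 times its median. The share gained was 16.3% in the report's setting, 15.9% with 2000 bp, 8.76% with 500 bp and 4.74% of 133252 tested windows with a minimum of 20 reads. The cause of these shifts was not tested. On the scale of windows at or below input in wild type, added after seeing the data, they numbered 14663 and 2328. With the reads of AtCMT3-L1T3 from a single run, also added, they were 35252 and 128 (run shared with wild type) and 34965 and 145. With L1 or L2 alone, gained windows ranged from 51140 to 70812 and lost windows from 3233 to 4482.

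The limma count was 0 with the lineage as a replicate block and 0 without the block (pairing dropped), where the unadjusted p was below 0.05 for 34154 windows higher and 3642 lower. It was also 0 with a pseudocount of 2 and ranged from 0 to 0 when each library was left out, where the lone plant of a generation was assumed to vary like the others. It was 4 with a minimum of 20 reads, 183 with the median set to 0, 18163 with all reads, 22316 with windows of 2000 bp and 24504 on the added scale, and the cause was not tested. The mean log2 T5 to T3 ratio over windows at or below input in wild type became 0.82 when these were limited to at most 0.5 times input, and lay between 0.37 and 0.63 with 1 lineage. The other alternatives for it and for wild-type H3K9me2 windows moved it by less than 1 SD, the latter from -0.43 to -0.07 with 1 lineage. Depth limits single windows: the median gained window rests on 3 to 5 T3 reads.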
